A study of Bos taurus with 37 samples.

Results

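The RNA of 10 genes that the growing oocyte transcribes for its own use was read out in single bovine blastocysts: GDF9, OOSP1, ZP2, ZP3, ZP4, ZAR1, NLRP5, MOS, H1FOO and KPNA7. They were chosen by name as products of the oocyte, and their symbols picked out 10 of the 22628 rows of the expression table, 1 row for each gene. The growing oocyte stores the RNA and protein of such genes, and most of the stored RNA is degraded as the embryo switches to its own genome. In cattle that switch comes well before the blastocyst, so the blastocyst is a stage at which little of this RNA is normally left. GDF9 is a growth factor that the oocyte secretes to the surrounding follicle cells, and OOSP1 is a secreted oocyte protein. ZP2, ZP3 and ZP4 are glycoproteins of the zona pellucida, the coat of the egg. ZAR1 is a maternal factor needed for the passage from oocyte to embryo, and NLRP5 is a part of the subcortical maternal complex beneath the oocyte membrane. MOS is the kinase that holds the oocyte in meiotic arrest, H1FOO is the linker histone of the oocyte, and KPNA7 is an importin that carries proteins into the nucleus in oocytes and early embryos.

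The libraries came from 35 single blastocysts. IVF-BLs, derived by in vitro fertilization, numbered 6 male and 6 female. SCNT-BLs numbered 6 male and 6 female. For these, 1 adult ear skin fibroblast was fused with an enucleated oocyte, and the fused egg was then activated. The SCNT-BLs were taken 6 to 8 days after transfer at 60 to 80 blastomeres. Selection of embryos by quality and cell number was described for each blastocyst and was not worded as limited to SCNT-BLs. Sham NT-BLs, 6 male and 5 female, were IVF zygotes from which the polar body and some of the ooplasm were removed 18 to 22 h after fertilization, and which were then activated with 5 μM ionomycin and 2.5 mM DMAP. All blastocysts therefore started from the cytoplasm of an oocyte, and the labels name no genetic alteration in any group. Donor fibroblasts gave 1 male and 1 female library, so their values carry no replicate error. Male and female libraries were sequenced on separate flow cells, so sex and flow cell cannot be told apart, and every comparison below was made within a sex. Poly-A RNA was amplified from each embryo, and the values are FPKM, fragments scaled to the length of the transcript and to the mapped fragments of the library.

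The blastocysts carried the markers of their stage. The 8 trophectoderm markers summed to between 1725 and 8594 FPKM in each blastocyst, and the 6 markers of the inner cell mass summed to between 24.5 and 346 FPKM. Skin fibroblast markers summed to between 1.93 and 35.7 FPKM in blastocysts, against 11492 FPKM in the male and 6557 FPKM in the female donor library. Of the 13 cumulus and granulosa cell markers 12 were above 0 in at least 1 blastocyst, and the list summed to between 11.9 and 873 FPKM. FOXL2 was the 1 marker listed at 0 in all blastocysts, and 4 of the 13 had a mean over 1 FPKM. Most of that sum came from HSD3B1, CYP19A1 and FSHR (means of 107, 9.43 and 8.10 FPKM). HSD3B1 and CYP19A1 are also known from trophoblast, and whether cumulus or granulosa cells contributed was not tested. Of 8 sperm markers, 7 were in the table, and they summed to between 0 and 15.8 FPKM. PRM2 was the only 1 of them listed at 0 in all blastocysts. Of the 7 rows, 1 had a mean over 1 FPKM, and the highest single value was 10.5 FPKM. Whether sperm RNA was present was not tested. Summed FPKM of all rows ran from 414105 to 601000 per blastocyst.

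Little RNA of the 10 genes was found. Of the 350 values (10 genes in 35 blastocysts), 210 were listed at 0, which is 60% and compares with 39.0% of the values of all rows. More than 1 FPKM was reached by 40 values, which is 11.4% against 45.5% for all rows, and 4 values exceeded 5 FPKM. The largest was 7.72 FPKM, for OOSP1 in male sham NT-BL replicate 3. That embryo held 4 of the 40 values over 1 FPKM. In bulk RNA of a whole blastocyst, fewer cells with a transcript and less of it per cell cannot be told apart.

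Averaged over the 35 blastocysts, KPNA7 was the one gene with a mean over 1 FPKM, at 1.05 ± 1.56 (SD, n = 35), where 49.3% of all rows had such a mean. ZP4 followed at 0.671 ± 1.14 FPKM, OOSP1 at 0.617 ± 1.67, GDF9 at 0.552 ± 1.02, ZP3 at 0.410 ± 0.702 and ZP2 at 0.406 ± 0.835. NLRP5 (0.138 ± 0.212), H1FOO (0.129 ± 0.502) and MOS (0.114 ± 0.234) lay lower. In each of these 9 genes the SD exceeded the mean, so neighbours in this order did not differ beyond the spread between embryos. ZAR1 was listed at 0 in all 37 libraries, as were 8.105% of the rows in all blastocysts. A gene listed at 0 may lie under the depth of the library, and a failed estimate would look the same.

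**Figure D1:**
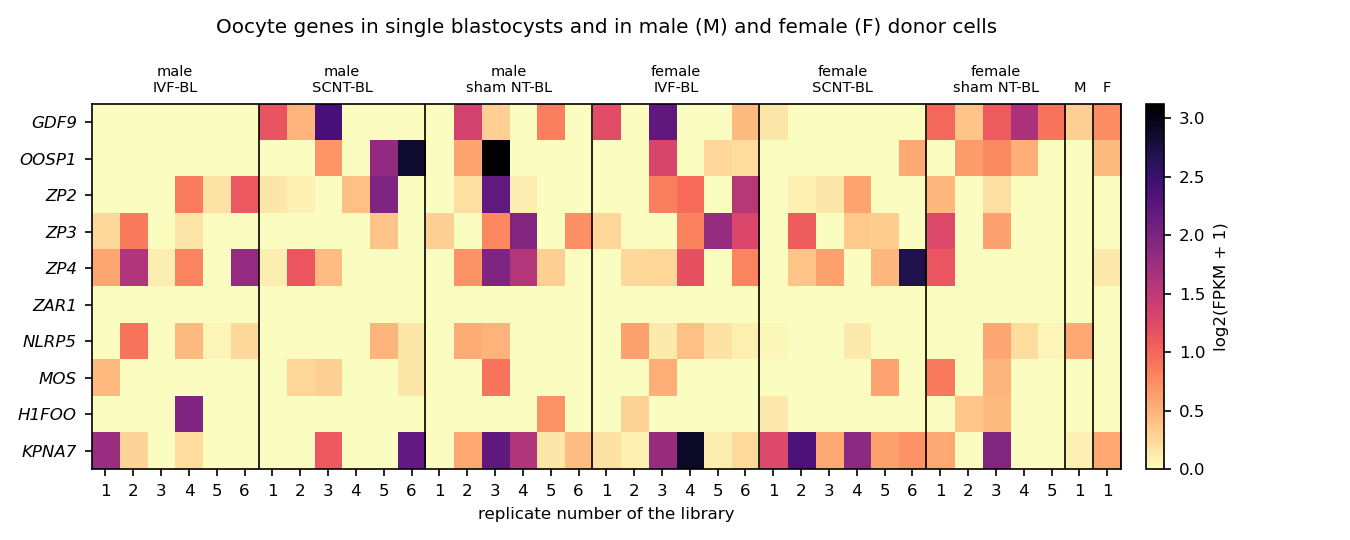
Level of the 10 oocyte genes (rows) in each library (columns, grouped by sex and origin, with 1 male (M) and 1 female (F) donor cell library), coloured by log2(FPKM + 1). Most cells are at 0, ZAR1 is at 0 throughout, and the highest value is OOSP1 in male sham NT-BL replicate 3 at 7.72 FPKM.

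The low values moved in fixed steps, from which the depth behind them could be read. Within a library, the values under 1 FPKM stood most often at a single ratio to those of male IVF-BL replicate 1 (11.8% to 20.5% of them in 1 bin, 0.02 wide in log2 units), and that ratio was taken as the relative depth of the library. Relative depth ran from 0.369 in female SCNT-BL replicate 5 to 1.45 in female IVF-BL replicate 6. After scaling by it, 80 of 80 values of up to 10 steps for ZP2, ZP3, ZP4, NLRP5, MOS, H1FOO and KPNA7 were whole multiples of the smallest value of the gene within 0.01 step. All 17 values of GDF9 above 0 were multiples of 0.5 step, while OOSP1 had 3 of 10 such values at whole steps. How many fragments a step stands for was not tested.

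Counted this way, 59 of the 140 values above 0 (42.1%) were of 3 steps or fewer. A step is set by the smallest value of each gene, and GDF9 moved by 0.5 step and OOSP1 unevenly. Step totals therefore do not rank the genes by amount of RNA. KPNA7 had the most steps, 474 over the 35 blastocysts and 86.0 in female IVF-BL replicate 4. ZP4 had 247 and ZP2 had 241 steps, ZP3 had 131 and NLRP5 had 132. GDF9 amounted to 127 steps and OOSP1 to 90.4, while MOS (30.0) and H1FOO (27.0) rested on the fewest. NLRP5 and ZP3 thus had like numbers of steps, although their mean FPKM were 0.138 and 0.410.

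The genes were found in different embryos rather than all in the same few. Each blastocyst had between 1 and 8 of the 10 genes above 0, with a median of 4, and 13 blastocysts had exactly 4. A value over 1 FPKM for at least 1 gene was seen in 24 blastocysts and in 11 there was none. The gene with the highest FPKM was GDF9 in 8 blastocysts, KPNA7 in 7, ZP4 in 6, ZP3 in 5, ZP2 in 4, OOSP1 in 3, and NLRP5 and H1FOO in 1 each. The leading gene held a median of 65.0% of the summed FPKM of the 10 genes. That sum had a median of 3.47 FPKM and ran from 0.0773 in male IVF-BL replicate 3, where ZP4 was the only gene above 0, to 20.1 in male sham NT-BL replicate 3.

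The most genes were seen in 2 sham NT-BLs, male replicate 3 and female replicate 3, which had 8 of the 10 genes above 0. The male embryo combined OOSP1 (7.72 FPKM), KPNA7 (3.65), ZP2 (3.61), ZP4 (2.94), MOS (0.875), ZP3 (0.705), NLRP5 (0.408) and GDF9 (0.245). Its relative depth of 0.535 was the lowest of its group, and 57.8% of all rows were above 0 in it, where the 6 male sham NT-BLs ran from 57.2% to 62.0%. Without it, a count added after the values were seen, 36 values exceeded 1 FPKM and 61.2% were at 0. The female embryo summed to 6.64 FPKM, led by KPNA7 (2.88) and GDF9 (1.12).

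**Figure D2:**
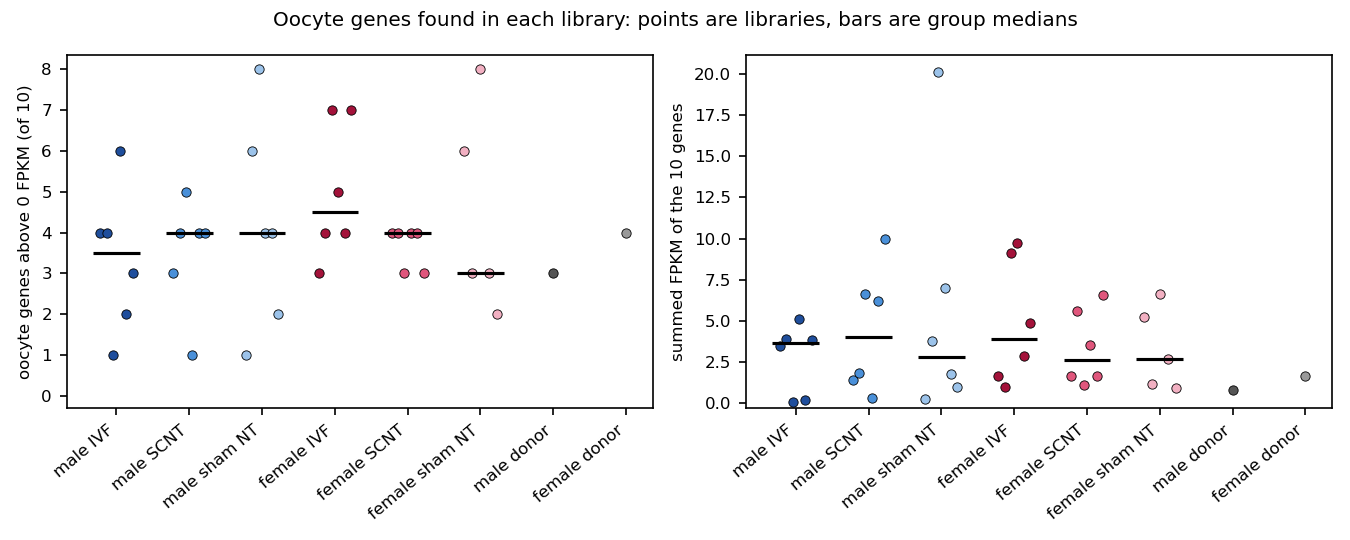
Number of the 10 oocyte genes above 0 FPKM (left) and their summed FPKM (right) in each library, by sex and origin, with horizontal bars at the group medians. Group medians lie between 3 and 4.5 genes and between 2.61 and 4.02 FPKM, the groups overlap in both measures, and male sham NT-BL replicate 3 stands highest at 20.1 FPKM.

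By group, the median number of genes above 0 among male embryos was 3.5 for IVF-BLs, 4 for SCNT-BLs and 4 for sham NT-BLs. Among female embryos it was 4.5 for IVF-BLs, 4 for SCNT-BLs and 3 for sham NT-BLs. The median summed FPKM was 3.66, 4.02, 2.78, 3.87, 2.61 and 2.68 in the same order. The ranges of all 6 groups overlapped in both measures. Relative depth moved with origin: its median was 0.924 in male IVF-BLs, 0.873 in male SCNT-BLs and 0.631 in male sham NT-BLs, and 1.11, 0.942 and 0.676 in the female groups. Its part in the number of genes above 0 was not tested.

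The donor fibroblasts, with 1 library per sex, show values that cells without an oocyte origin can reach in this assay. Of their 20 values, 13 (65%) were at 0 and none exceeded 1 FPKM. In the male library NLRP5 stood at 0.480, GDF9 at 0.237 and KPNA7 at 0.0588 FPKM. In the female library GDF9 stood at 0.682, KPNA7 at 0.484, OOSP1 at 0.365 and ZP4 at 0.106 FPKM. The donor libraries both listed ZP2, ZP3, ZAR1, MOS and H1FOO at 0. Set against the 2 donor values of the same gene, 105 of the 140 blastocyst values above 0 were higher than both. These include all 50 such values of ZP2, ZP3, MOS and H1FOO, an outcome fixed by their donor values of 0. For NLRP5 they were 3 of 18 and for KPNA7 13 of 24. Against the highest donor value of any of the genes, 0.682 FPKM, 55 of the 350 values (15.7%) were higher.

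The secreted factor GDF9 was the gene with the clearest difference between groups. In female sham NT-BLs it was found in 5 of 5 embryos, at 0.969, 0.307, 1.12, 2.08 and 0.881 FPKM (1.07 ± 0.643, SD, n = 5). In female SCNT-BLs it was found in 1 of 6, at 0.111 FPKM, and was at 0 in the other 5 (0.0185 ± 0.0454, n = 6). The values of these 2 groups did not overlap, as was so for 8.48% of the 15116 genes tested between them. Female IVF-BLs were mixed, with 3 embryos at 0 and the others at 0.362, 1.32 and 3.66 FPKM (0.890 ± 1.45, n = 6). Male IVF-BLs were at 0 in 6 of 6 embryos. Male SCNT-BLs had 3 embryos at 0 and 0.409, 1.21 and 4.32 FPKM in the rest (0.991 ± 1.70, n = 6), and male sham NT-BLs had 3 at 0 and 0.245, 0.786 and 1.54 FPKM in the rest (0.429 ± 0.626, n = 6).

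OOSP1 had the highest single value and was at 0 in 23 of the 35 blastocysts. Male IVF-BLs were at 0 in 6 of 6 embryos, as for GDF9. In male SCNT-BLs 3 embryos were at 0 and the others at 0.611, 2.56 and 6.19 FPKM (1.56 ± 2.47, n = 6). In male sham NT-BLs 4 embryos were at 0, 1 was at 0.506 and replicate 3 was at 7.72 FPKM (1.37 ± 3.12, n = 6), so the mean of that group rests on 1 embryo. Female IVF-BLs had 3 embryos at 0 and the others at 0.170, 0.189 and 1.46 FPKM. Female SCNT-BLs had 1 embryo above 0, at 0.481 FPKM, and female sham NT-BLs had 2 at 0 and 0.433, 0.576 and 0.701 FPKM in the rest. GDF9 and OOSP1, above 0 in 15 and 12 of the 35 blastocysts, were above 0 together in 8. That is 53.3% of those with GDF9 and 66.7% of those with OOSP1. It is not particular to this pair, as OOSP1 was above 0 with NLRP5 in 9 blastocysts and with KPNA7 in 9.

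KPNA7, the importin, was found in 24 of 35 blastocysts, more than any other of the 10 genes. It was above 0 in 6 of 6 female IVF-BLs (0.0560 to 6.43 FPKM, median 0.158) and in 6 of 6 female SCNT-BLs (0.481 to 4.16, median 1.01). The means of these groups were 1.56 ± 2.57 and 1.64 ± 1.49 FPKM (n = 6 each). In the IVF-BLs 2 embryos held most of that level and the other 4 lay at or under 0.180 FPKM. Female sham NT-BLs had 3 of 5 embryos at 0, 1 at 0.481 and 1 at 2.88 FPKM. Among males, KPNA7 was above 0 in 3 of 6 IVF-BLs (largest 2.41 FPKM), 2 of 6 SCNT-BLs (1.13 and 3.55) and 5 of 6 sham NT-BLs (largest 3.65).

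**Figure D3:**
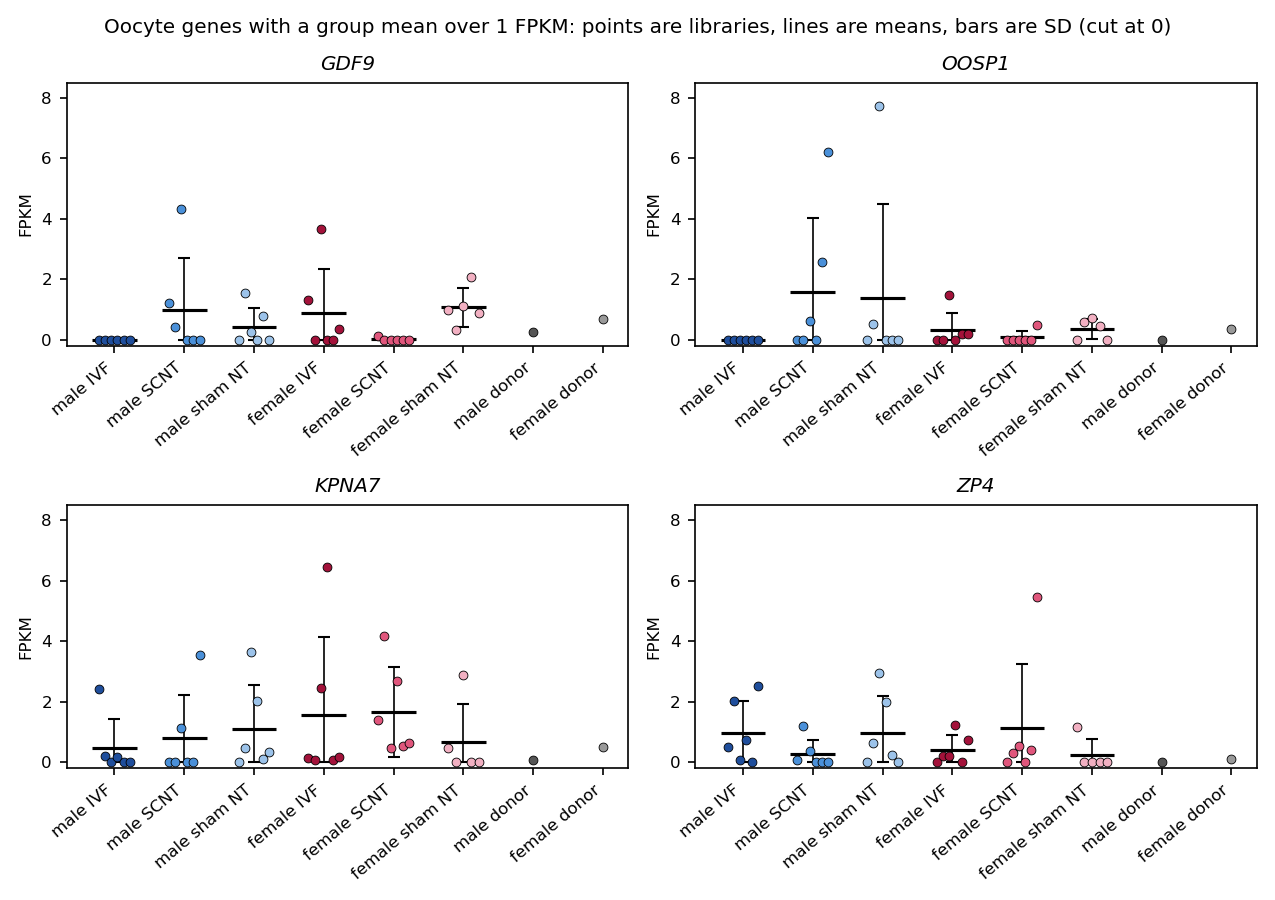
FPKM of GDF9, OOSP1, KPNA7 and ZP4, the 4 genes whose mean exceeded 1 FPKM in at least 1 blastocyst group, by sex and origin. Points are libraries, horizontal lines are group means and bars are SD, cut at 0 (donor cells have 1 library each). GDF9 is above 0 in 5 of 5 female sham NT-BLs and in 1 of 6 female SCNT-BLs, and the largest single value is OOSP1 at 7.72 FPKM in male sham NT-BLs.

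The egg coat genes were spread thinly over embryos. At least 1 of ZP2, ZP3 and ZP4 was above 0 in 30 blastocysts, namely 1 gene in 11, 2 genes in 12 and all 3 in 7, and none in 5. ZP4 was found most often, in 21 of 35 blastocysts. Male IVF-BLs had it above 0 in 5 of 6 embryos (largest 2.51 FPKM, median 0.619, mean 0.973 ± 1.05), and male sham NT-BLs in 4 of 6 (largest 2.94, median 0.438, mean 0.970 ± 1.22). Female SCNT-BLs had a mean of 1.11 ± 2.14 FPKM, which rests on replicate 6 at 5.46 FPKM, where the other 5 embryos were at or under 0.529 FPKM. In female sham NT-BLs 4 embryos were at 0 and replicate 1 was at 1.16 FPKM. Female IVF-BLs had 2 embryos at 0 and 0.185, 0.203, 0.741 and 1.23 FPKM in the rest, and male SCNT-BLs had 3 at 0 and 0.0735, 0.356 and 1.19 FPKM in the rest.

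ZP2 was above 0 in 18 blastocysts and over 1 FPKM in 4, at most 3.61 FPKM in male sham NT-BL replicate 3 and 2.94 FPKM in male SCNT-BL replicate 5. Its group means ran from 0.107 FPKM in female sham NT-BLs to 0.639 FPKM in male sham NT-BLs. ZP3, another protein of the coat, was above 0 in 17 blastocysts and over 1 FPKM in 5. It was found in 1 of 6 male SCNT-BLs (0.301 FPKM) and in 4 of 6 male sham NT-BLs (largest 2.90 FPKM).

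NLRP5, MOS and H1FOO had the lowest means of the 9 genes found. NLRP5 was above 0 in 18 blastocysts but never over 1 FPKM, with a largest value of 0.880 FPKM in male IVF-BL replicate 2. It was found in 5 of 6 female IVF-BLs (0.192 ± 0.202 FPKM, n = 6) and 2 of 6 female SCNT-BLs (0.0196 ± 0.0367, n = 6). It also stood at 0.480 FPKM in the male donor library, a level that 3 blastocysts exceeded. MOS was above 0 in 9 blastocysts, at most 0.875 FPKM (male sham NT-BL replicate 3), and no value came to more than 6.00 steps. H1FOO was above 0 in 6 blastocysts, 1 of them over 1 FPKM, which was male IVF-BL replicate 4 at 2.91 FPKM, and it was at 0 in all male SCNT-BLs.

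The question of each comparison between origins was whether the level of this RNA differed between 2 groups of the same sex. RNA kept from the oocyte and RNA newly made by the embryo cannot be told apart in these values. Each pair of groups was tested with limma on log2(FPKM + 1), two-sided, over all genes with a mean over 0.1 FPKM in the 2 groups, and adjusted by the Benjamini-Hochberg method, with a call at an adjusted p under 0.05. For genes as low as these, adding 1 to the FPKM makes a difference look smaller than it is. Of 60 possible tests of the 10 genes in 6 comparisons, 47 could be made, because 13 fell under the filter, and 1 passed. The filter kept a gene that was high in 1 group and at 0 in the other, so the genes tested are no account of all 10.

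The comparison that gave the call was female SCNT-BLs against female sham NT-BLs. GDF9 passed the filter there only through the sham NT-BLs (mean 1.07 FPKM), as its mean in the SCNT-BLs was 0.0185 FPKM. GDF9 was lower in SCNT-BLs by a log2 difference of -0.97 (SE 0.23, 95% interval -1.46 to -0.49, adjusted p = 0.0121 by limma). GDF9 was thus 1 of 7 of the oocyte genes tested here (14.3%), where 11.3% of all 15116 genes tested were called in either direction and 6.07% as lower. At an unadjusted p under 0.05 it was also 1 of 7, against 25.2% of all genes. Non-overlapping values, as GDF9 had them, were seen in 8.48% of the genes tested. The exact two-sided permutation test gave p = 0.00216, the smallest that its 462 labelings allow (adjusted p = 0.0395 over all genes tested).

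In steps, GDF9 amounted to 1 step over the 6 female SCNT-BLs and to 26.5 steps over the 5 female sham NT-BLs. A step was worth 0.111 to 0.356 FPKM in the SCNT-BLs, so in the shallowest of them 1 step was more than the lowest sham NT-BL value of 0.307 FPKM. Relative depth was 0.369 to 1.18 (median 0.942) in the SCNT-BLs and 0.426 to 0.818 (median 0.676) in the sham NT-BLs, and its part in the difference was not tested. The call was kept when any 1 embryo was left out (log2 difference -1.12 to -0.82, adjusted p 0.00770 to 0.0296 by limma). It was not kept under every alternative, and was lost, for example, when all blastocyst groups shared 1 fit (-0.97, adjusted p = 0.0594). With a pseudocount of 0.1 the difference was -3.18 (adjusted p = 0.00519).

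The other 6 genes tested between these groups did not pass, with adjusted p of 0.321 or more. KPNA7 was at 1.64 ± 1.49 FPKM in SCNT-BLs and at 0.671 ± 1.25 in sham NT-BLs, a log2 difference of 0.73 with a 95% interval of -0.20 to 1.65. The interval of ZP4 was -0.42 to 1.37 and that of OOSP1 was -0.73 to 0.15. BMP15, the oocyte factor that acts with GDF9 and was looked up after its values were seen, had means of 0.380 and 0.0939 FPKM in these groups, a log2 difference of 0.27 (SE 0.25, adjusted p = 0.528 by limma).

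Cumulus and granulosa markers summed to 37.9 to 142 FPKM in female SCNT-BLs and 60.6 to 222 FPKM in female sham NT-BLs. The inner cell mass markers summed to 133 to 197 FPKM in the SCNT-BLs and to 86.0 to 117 FPKM in the sham NT-BLs. The part of either cell makeup in the difference of GDF9 was not tested.

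**Figure D4:**
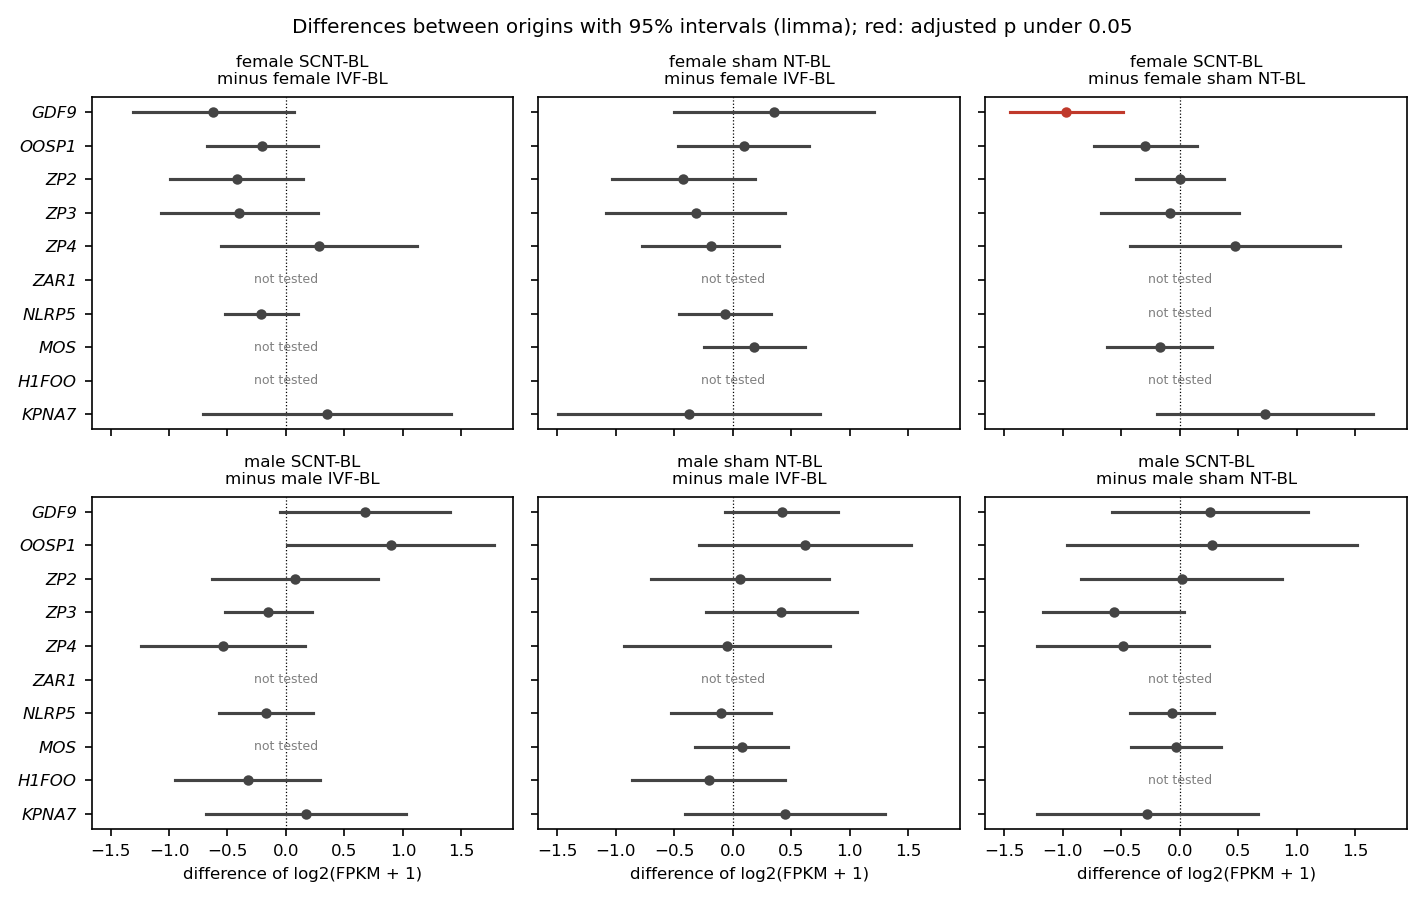
Differences of mean log2(FPKM + 1) for the 10 oocyte genes in the 6 comparisons between origins within a sex, first group minus second, with 95% intervals from limma. Genes under the filter are marked as not tested, and only GDF9 in female SCNT-BLs against female sham NT-BLs (red, -0.97) has an adjusted p under 0.05.

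When SCNT-BLs were set against IVF-BLs in females, 0 of 7 genes passed by limma, where 0.321% of all 15256 genes tested were called. At an unadjusted p under 0.05 there were also 0, against 10.9% of all genes. GDF9 had means of 0.0185 and 0.890 FPKM, a log2 difference of -0.62 (95% interval -1.31 to 0.07, adjusted p = 0.503). The exact permutation test called none after adjustment and had 1 gene under 0.05 before it, NLRP5 (p = 0.0411), for which limma gave -0.21 (95% interval -0.52 to 0.10, adjusted p = 0.623). Of the 7 differences 5 were negative, with a median of -0.21 against -0.04 for all genes tested.

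When sham NT-BLs were set against IVF-BLs in females, 0 of 8 genes passed by limma or by the exact permutation test, against 13.5% of all genes called by limma. At an unadjusted p under 0.05 there were 0 by either, against 27.3% of all genes by limma. Of all 15259 genes tested, the permutation test called 1419 after adjustment and had 3983 under 0.05 before it. GDF9 was at 1.07 and 0.890 FPKM, a log2 difference of 0.35 with a 95% interval of -0.51 to 1.21. This comparison and the last share the 6 female IVF-BLs. The widest interval was that of KPNA7, from -1.50 to 0.74.

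Among males, SCNT-BLs against IVF-BLs gave 0 of 8 genes past the threshold by limma, against 6.98% of all genes. At an unadjusted p under 0.05 there was 1, against 20.7% of all genes. By the exact permutation test both counts were 0. After adjustment that test called 0 of all 14906 genes, so that count says nothing about these 8. Before adjustment it had 2971 of the 14906 genes under 0.05. The nominal difference was in OOSP1, at 1.56 ± 2.47 FPKM against 0 in all 6 IVF-BLs (log2 difference 0.89, SE 0.42, adjusted p = 0.236, exact permutation p = 0.182). GDF9 had a mean of 0.991 FPKM against 0 (0.68, SE 0.34, adjusted p = 0.283). ZP4 had means of 0.270 and 0.973 FPKM (-0.54, 95% interval -1.24 to 0.16). No fold is given against the IVF-BLs that list GDF9 and OOSP1 at 0.

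Sham NT-BLs against the same male IVF-BLs gave 0 of 9 genes past the threshold by limma or by the exact permutation test, against 12.1% of all genes called by limma. At an unadjusted p under 0.05 there were 0 by either, against 25.4% of all genes by limma. Of all 14902 genes tested, the permutation test called 1361 after adjustment and had 3642 under 0.05 before it. GDF9 (log2 difference 0.42, 95% interval -0.07 to 0.90) and OOSP1 (0.62, -0.29 to 1.53) were the genes at 0 in all IVF-BLs. The difference of OOSP1 rests on 2 of 6 sham NT-BLs, and mostly on replicate 3.

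Male SCNT-BLs against male sham NT-BLs gave 0 of 8 genes past the threshold by limma or by the exact permutation test, against 11.8% of all genes called by limma. At an unadjusted p under 0.05 there were 0 by either, against 24.9% of all genes by limma. Of all 14783 genes tested, the permutation test called 1294 after adjustment and had 3531 under 0.05 before it. The lowest adjusted p belonged to ZP3 (log2 difference -0.57, 95% interval -1.17 to 0.04, adjusted p = 0.232). GDF9 had a difference of 0.26 (95% interval -0.58 to 1.10), where the female groups differed by -0.97 in the same contrast. That difference between the sexes was not tested.

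Whether the difference between origins differed between the sexes was tested as an interaction against the IVF-BLs, the female difference minus the male one. For SCNT-BLs 0 of 8 genes passed by limma (1.91% of all genes were called), and 2 had an unadjusted p under 0.05 (15.2% of all genes did). These were GDF9 (-1.30, SE 0.50, adjusted p = 0.196 by limma) and OOSP1 (-1.10, SE 0.50, adjusted p = 0.289). For sham NT-BLs 0 of 9 passed by limma and 0 had an unadjusted p under 0.05, where 1.22% of all genes were called and 12.2% had such a p.

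KPNA7 was the only gene with a mean high enough to ask which other gene varied with it. Among 11154 other genes with a mean over 1 FPKM, FAM154A had the highest correlation with KPNA7 across the 35 blastocysts (Pearson r = 0.625, Spearman rho = 0.662, on log2(FPKM + 1)). The points share the groups and depths of the libraries, and this is the largest of many values, so it is a description only.

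Other genes known from the oocyte were looked up in 6 lists. Of 48 such genes, 39 were in the table in 40 rows, and 21 rows (52.5%) had a mean over 1 FPKM in the blastocysts, a share near the 49.3% of all rows. The egg coat and secreted list had 2 of its 5 genes in the table, and these were as low, with ASTL at 0.164 and BMP15 at 0.293 FPKM. Of 8 rows of the maternal complex and NLRP genes, TLE6 (1.42 FPKM) and OOEP (2.14 FPKM) exceeded 1 FPKM, while the NLRP relatives of NLRP5 ran from 0.0287 to 0.267 FPKM. ZAR1L, the relative of ZAR1, had 2.07 ± 2.18 FPKM (n = 35) and was above 0 in 34 blastocysts. These genes, and the next ones, were picked out after their values were seen.

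A mean over 5 FPKM was seen for 8 rows. DPPA3, a maternal chromatin protein that the blastocyst itself also transcribes, had 1527 FPKM, TRIM28 had 31.0, 1 of the 2 rows of TET3 had 24.2 and DNMT1 had 12.8 FPKM. AURKC (11.3), DDX4 (9.48), SOHLH2 (8.21) and BTG4 (7.78) completed them. The donor fibroblasts also had RNA of genes in these lists. Summed FPKM in the male and female donor library, against the blastocyst median, were 64.4 and 79.7 against 12.3 for the meiotic list. They were 16.0 and 24.4 against 24.5 for the mRNA regulators and 4.22 and 5.91 against 3.56 for the maternal complex. Chromatin genes had 199 and 138 against 1326, and transcription factors 0.137 and 0.106 against 7.58. Egg coat genes had 0.0958 and 0 against 0.175.

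**Figure D5:**
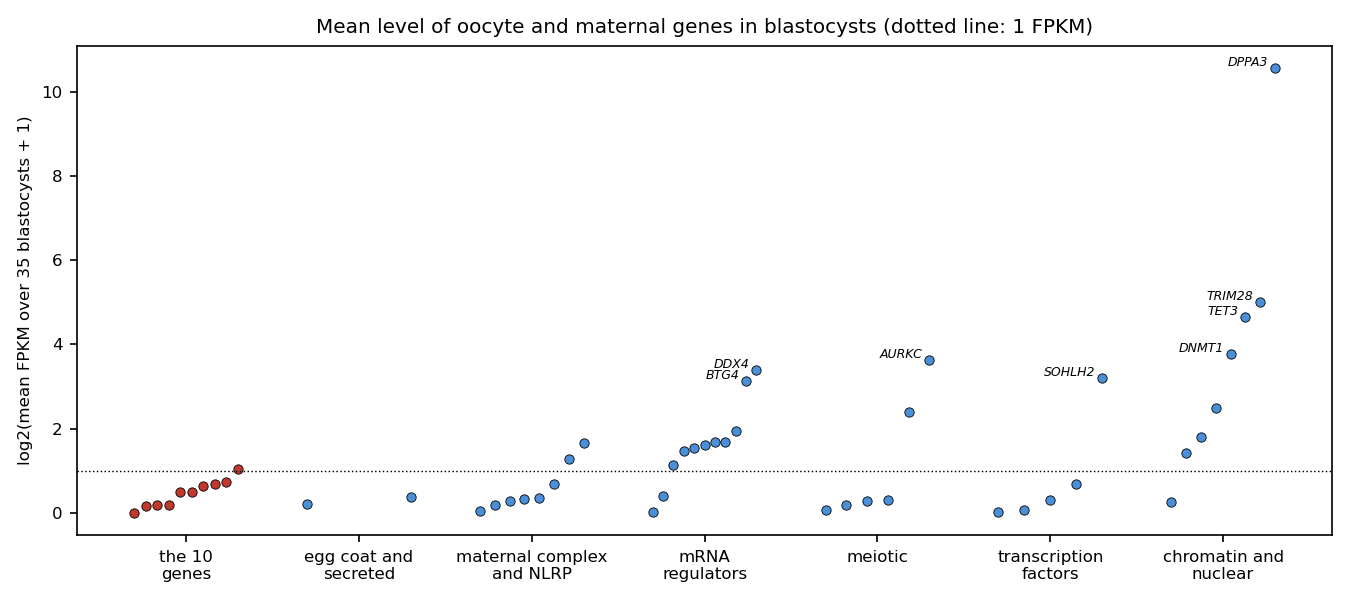
Mean level over the 35 blastocysts, as log2(mean FPKM + 1), of the 10 oocyte genes (red) and of 40 rows of other oocyte and maternal genes (blue) in 6 lists, with genes over 5 FPKM named and a dotted line at 1 FPKM. The 10 genes lie at or just above the line or under it, while DPPA3 reaches 1527 FPKM.

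Calls among these other genes were few, at most 2 in any comparison between origins. In female sham NT-BLs against IVF-BLs they were 2 of 35 rows tested, where 13.5% of all genes were called, and the other comparisons with sham NT-BLs gave 1 or 2 of 32 or 33 rows, where 11.3% to 12.1% were. The rows called belong to the list of chromatin and nuclear genes, and whether that list differs from the others was not tested. DPPA3 was higher in sham NT-BLs than in IVF-BLs, in females at 2533 against 822 FPKM (log2 difference 1.61, adjusted p = 5.2e-04 by limma) and in males at 2726 against 1047 (1.25, adjusted p = 0.0331, a call lost in 6 of the 12 runs that each left out 1 embryo). It was lower in female SCNT-BLs than in female sham NT-BLs (-1.68, adjusted p = 0.00271), where GDF9 was lower too. The others were TET3, TRIM28 and UHRF1. The 2 rows of TET3 can share reads and moved apart: 1 was lower in female sham NT-BLs than in IVF-BLs (-1.34, adjusted p = 0.0427, lost in 8 of 11 such runs and in 3 of 8 other alternatives), the other higher in male sham NT-BLs than in IVF-BLs (1.45, adjusted p = 0.00987) and lower in male SCNT-BLs than in sham NT-BLs (-2.01, adjusted p = 0.00325). TRIM28 was lower in male SCNT-BLs than in IVF-BLs (-0.92, adjusted p = 0.0486), a call kept in 1 of 12 leave-one-out runs and 3 of 8 other alternatives. UHRF1 was lower in male SCNT-BLs than in sham NT-BLs (-1.12, adjusted p = 0.0359), and that call was kept in 3 of 12 leave-one-out runs. The egg coat, maternal complex, mRNA regulator, meiotic and transcription factor lists had 0 calls by limma in any of the 6 comparisons, with 0 to 3 genes per list at an unadjusted p under 0.05.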

How the data were processed

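The authors extracted poly-A RNA from single blastocysts and donor cells, amplified it by pico-profiling with random primers, and sequenced paired ends of libraries made with a DNA kit, which does not mark strand. They trimmed reads with Trim Galore, aligned them to UMD3.1 with TopHat2 and estimated known transcripts alone with Cufflinks (option -G). The submitters' processing notes also name Cuffdiff, and versions are not given in the sources used here. The authors deposited 1 table of FPKM, 22628 rows by 37 libraries, normalized for transcript length and mapped fragments. Counts are not in it, so counting errors were not computed. The paper reports sequencing depth and mapping rates in its supplement, and these were not used here. Depth is given here only as the relative depth read from the steps of low values, a method chosen after the values were seen. The relative depth was not checked against the reported depth. No pair of libraries within a group was alike enough to be 1 library deposited again (r of 0.830 to 0.936).

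The 10 genes and all lists were chosen with earlier results of these data known. Every gene is named, those with a group mean over 1 FPKM or a call with values per embryo, and of other oocyte genes at most 3 calls per comparison, beside those said to be picked later. All 10 symbols matched RefSeq annotation of a later assembly, 8 directly and 2 by synonym: OOSP1 is there OOSP2, and H1FOO is H1-8. In it ZAR1 overlaps FRYL and NLRP5 overlaps a long non-coding RNA, whose reads cannot be separated without strand, and no coordinates were used.

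All fits used limma 3.58.1 in R 4.3.3 (lmFit, eBayes with trend) on log2(FPKM + 1), with genes over a mean of 0.1 FPKM in the groups compared and Benjamini-Hochberg adjustment over all of them. The embryos of a group were the replicates. The labels do not say whether they came from separate oocyte donors or culture runs, so p-values measure only the spread between these embryos. Exact permutation tests used all 924 labelings of 6 against 6 embryos or 462 of 5 against 6. The fit was tested on simulated data. Alternatives were a pseudocount of 0.1, a filter of 1 FPKM or none, median scaling, eBayes without trend, all blastocyst groups in 1 fit, a replicate block, the permutation test and each embryo left out in turn.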

Additional observations from a re-analysis of the deposited data

Results flagged for a closer look

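A single embryo stood apart from the rest of its group in 29 of the 51 sets of values (1 gene in 1 group, 9 further sets being all at 0) by Dixon's test at the 95% level. Chance flags about 1 set in 20 where values are normally distributed, which sets full of zeros are not, so the count of 29 says nothing beyond how the values lie. In 12 of the 29 sets all embryos but 1 were at 0, which fixes the outcome.

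In male IVF-BLs these were KPNA7 in replicate 1 (2.41 FPKM), MOS in replicate 1 (0.375), ZP3 in replicate 2 (0.817) and H1FOO in replicate 4 (2.91). In male SCNT-BLs they were ZP4 in replicate 2 (1.19), GDF9 in replicate 3 (4.32), ZP2, ZP3 and NLRP5 in replicate 5 (2.94, 0.301 and 0.399) and KPNA7 in replicate 6 (3.55). In male sham NT-BLs replicate 3 stood apart for OOSP1 (7.72), ZP2 (3.61) and MOS (0.875), replicate 4 for ZP3 (2.90) and replicate 5 for H1FOO (0.645).

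In female IVF-BLs replicate 3 stood apart for GDF9 (3.66), OOSP1 (1.46) and MOS (0.443), and replicate 2 for H1FOO (0.216). In female SCNT-BLs these were GDF9 (0.111) and H1FOO (0.106) in replicate 1, ZP3 in replicate 2 (1.10), ZP2 (0.509) and NLRP5 (0.0914) in replicate 4, MOS in replicate 5 (0.508), and OOSP1 (0.481) and ZP4 (5.46) in replicate 6. In female sham NT-BLs they were ZP4 in replicate 1 (1.16) and KPNA7 in replicate 3 (2.88).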

How the results depend on the processing

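The count of genes called was 1 in female SCNT-BLs against female sham NT-BLs. It fell to 0 with a filter of 1 FPKM, which left 1 of the 10 genes to test, to 0 with all blastocyst groups in 1 fit (GDF9 -0.97, adjusted p = 0.0594 by limma) and to 0 with a replicate block (-0.97, adjusted p = 0.0558). It was 1 under the other alternatives, and when 1 embryo was left out it was 1 each time. In the other 5 comparisons and both interactions the count was 0 under every alternative run. Embryos with the same number share only that number: their deviations correlated at -0.239 to 0.0758, in no pair over 0.1, so the block is not a pairing. Under it 0 of the 10 genes were called in any comparison.

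Of 1362 recomputed single-gene differences, 1308 kept their direction and side of the threshold. Outside the leave-one-out runs 3 turned, all near 0: ZP2 in female SCNT-BLs against sham NT-BLs to -0.00417 under median scaling, and with a pseudocount of 0.1 ZP2 in male sham NT-BLs against IVF-BLs to -0.12 and MOS in male SCNT-BLs against sham NT-BLs to 0.19.

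Leaving out 1 embryo turned the direction of 20 of 64 single-gene differences, none of them called. In females the log2 difference then ran from -0.12 to 0.43 for ZP4 in SCNT-BLs against IVF-BLs. In female sham NT-BLs against IVF-BLs it ran from -0.00219 to 0.29 for OOSP1, -0.17 to 0.00953 for NLRP5 and -0.74 to 0.026 for KPNA7, and in female SCNT-BLs against sham NT-BLs from -0.24 to 0.14 for ZP3 and -0.0306 to 0.0304 for ZP2. In males it ran from -0.16 to 0.45 for KPNA7 and -0.23 to 0.23 for ZP2 in SCNT-BLs against IVF-BLs, and from -0.18 to 0.0231 for NLRP5, -0.30 to 0.21 for ZP2 and -0.29 to 0.15 for ZP4 in sham NT-BLs against IVF-BLs. In male SCNT-BLs against sham NT-BLs it ran from -0.11 to 0.78 for OOSP1, -0.61 to 0.000917 for KPNA7, -0.29 to 0.37 for ZP2 and -0.0886 to 0.44 for GDF9. The interaction for SCNT-BLs ran from -0.17 to 0.0367 for NLRP5 and -0.10 to 0.58 for KPNA7, and that for sham NT-BLs from -0.0903 to 0.11 for NLRP5, -0.36 to 0.10 for ZP4 and -0.22 to 0.25 for GDF9.

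Among all genes, female SCNT-BLs against IVF-BLs had 49 calls, which became 136 with all groups in 1 fit, 75 with a filter of 1 FPKM, 20 with a replicate block, 1 without a filter, 0 by the exact permutation test and 1 to 57 when 1 embryo was left out (1 without SCNT-BL replicate 3). Calls in male SCNT-BLs against IVF-BLs went from 1040 to 652 under the block and 0 by the permutation test, and in female SCNT-BLs against sham NT-BLs from 1706 to 387 higher and 442 lower by that test. The interactions fell from 295 to 94 and from 187 to 80 under the block, and to 147 and 110 at the lowest when 1 embryo was left out. The causes were not tested. Of the 140 values above 0 of the 10 genes, 59 were of 3 steps or fewer. Among the other oocyte genes, the calls of DPPA3 were kept in all 11 leave-one-out runs in both female comparisons, with adjusted p of at most 0.0342 and 0.0526 under any alternative, and in 6 of 12 in males (at most 0.114). TRIM28, UHRF1 and the weaker row of TET3 reached adjusted p of 0.120, 0.0827 and 0.104, and the calls of the other row of TET3 were kept throughout.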
